A study of Mus musculus with 9 samples.

Results

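Sphingosine 1-phosphate (S1P) is a signalling lipid of blood and lymph, and the 9 genes described here encode 3 of its receptors (S1pr1, S1pr2 and S1pr3), the 2 sphingosine kinases that make it (Sphk1 and Sphk2), an exporter (Spns2), the lyase that destroys it (Sgpl1) and 2 cell-surface lipid phosphatases that remove its phosphate (Plpp1 and Plpp3). They were taken by symbol as a fixed set of 9 genes from a deposited table of 52636 genes, of which 14583 had enough counts to be tested. RNA was sequenced from mouse liver endothelial cells sorted as live, CD45-negative, CD31-positive cells that had bound a VE-cadherin antibody injected into the living animal. There were 5 libraries labelled Erg and Fli1 double knockout and 4 control libraries labelled Wild Type, all from cells taken at day 7 after tamoxifen, which the labels give as the inducer of deletion for both groups. Erg and Fli1 encode ETS family transcription factors of endothelial and blood cells. The floxed alleles, the Cre driver, the ages of the mice and the number of animals behind each library are not stated in the labels.

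S1P is made inside cells by phosphorylation of sphingosine, leaves endothelial cells through the transporter SPNS2, and acts from outside on G protein-coupled receptors. S1PR1 couples to inhibitory G proteins and is known for holding endothelial junctions together, whereas S1PR2 couples to further G proteins and is known for loosening them. The signal is ended by dephosphorylation at the cell surface, where PLPP1 and PLPP3 act on S1P and on lysophosphatidic acid (LPA), or by irreversible cleavage inside the cell by the lyase SGPL1.

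Among these genes the largest difference was in a phosphatase. Plpp3 fell 5.28-fold in the libraries labelled knockout, to 548 ± 175 CPM (SD, n = 5), against 2893 ± 192 CPM in controls (SD, n = 4). The exporter Spns2 fell 1.85-fold and the lyase Sgpl1 1.63-fold, while the receptor S1pr1 rose 2.43-fold and the kinase Sphk2 1.34-fold. Thus 2 members were higher and 3 lower at an adjusted p under 0.05, 3 were tested and did not pass, and Sphk1 had too few counts to be tested. Among all genes tested 14.5% were called higher and 14.8% lower, 29.3% in all, so a call on its own does not set these genes apart. In the same 5 called members the groups did not overlap, as in 27% of all genes tested. CPM here is a gene's share of its library's counts with the total adjusted by TMM, a correction for differences in library make-up, and calls come from the quasi-likelihood test of edgeR, with p adjusted by Benjamini-Hochberg over every gene tested. As these are bulk samples, less RNA per cell and fewer cells of an expressing type cannot be told apart.

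The 2 targeted genes went opposite ways. Erg had 146, 131, 144, 135 and 159 CPM in replicates 1 to 5 of the libraries labelled knockout, against 303, 337, 308 and 297 CPM in the controls (log2 fold change -1.12 ± 0.08, SE). Fli1 had 125, 151, 172, 123 and 166 CPM in the libraries labelled knockout, against 104, 97.3, 90.4 and 109 CPM in the controls (0.56 ± 0.12, SE; edgeR adjusted p = 0.00636). Fli1 counts per gene thus went against the label, which is why the libraries are called labelled knockout throughout, and each rise or fall is given against that label. Reads from exons outside a deleted part would still be counted, and the labels do not name the deleted exons.

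Library totals lay between 26791371 and 36401682 counts in the libraries labelled knockout and between 31613059 and 34663989 counts in controls. The endothelial genes of the sort were present in every library, with Cdh5 (VE-cadherin) at 2158 ± 193 CPM in the libraries labelled knockout and 2190 ± 113 CPM in controls, and Pecam1 (CD31) at 1408 ± 164 and 1482 ± 97.9 CPM in the same order. Of the 8 endothelial markers tested 0 were higher and 1 lower: Tek, a receptor gene for angiopoietins, differed by -0.60 ± 0.17 on the log2 scale (SE; edgeR adjusted p = 0.0218). With knockout-labelled replicates 2 and 3 left out, 2 were lower. The median log2 fold change of the 8 was -0.21. Lyve1 had 254 ± 396 CPM in the libraries labelled knockout (median 29.5) and 1005 ± 168 CPM in controls. Its wide spread left it uncalled (edgeR adjusted p = 0.200). The summed level of these 8 markers was 16577 and 15527 CPM in knockout-labelled replicates 2 and 3. It was 23655 to 26440 CPM in replicates 1, 4 and 5 and 24989 to 26091 CPM in controls. Pecam1 had 1307, 1585, 1525, 1444 and 1181 CPM in knockout-labelled replicates 1 to 5, and 1369 to 1602 CPM in controls. Cdh5 had 2440, 1916, 2086, 2223 and 2124 CPM in the same libraries, and 2078 to 2339 CPM in controls. The markers with most counts, Kdr, Eng, Stab2 and Ptprb, had minima of 2861, 3042.5, 3130 and 1867 CPM in the libraries labelled knockout. Their control minima were 4491, 4602, 5294 and 4568 CPM. Of 6 platelet and megakaryocyte markers 5 were higher in the libraries labelled knockout, where their sum ran between 67.2 and 138 CPM, against 26.6 to 40.1 CPM in controls, and none was at 0 in all libraries. With knockout-labelled replicates 2 and 3 left out, 2 of those 5 were called. Of 35 tested markers of hepatocytes, mesenchymal cells, macrophages, lymphocytes, erythroid cells and cholangiocytes, 0 were called by edgeR, 4 were lower at an unadjusted p under 0.05, and DESeq2 and limma-voom each called 3, all hepatocyte markers and lower. The 8 hepatocyte markers had a median log2 fold change of -1.09, and their sum ran between 17.2 and 204 CPM in the libraries labelled knockout, against 153 to 358 CPM in controls. The sums of those 6 lists overlapped between the groups. Knockout-labelled replicate 2 nonetheless had the highest macrophage, mesenchymal, lymphocyte, erythroid and cholangiocyte sums of all libraries. The part of platelet or hepatocyte transcripts, or of the lower endothelial sum in replicates 2 and 3, in the results below was not tested. Nor was the part of the other cell types in replicate 2. Among the libraries labelled knockout, replicates 2 and 3 stood apart on the second principal component, which held 18.1% of the variance: they lay at 41.8 and 22.6, replicates 1, 4 and 5 at -13.1, -32.4 and -36.2, and the controls between -9.39 and 16.7. Nothing in the labels says that each library came from its own animal, so p-values measure the spread between these libraries, part of which may be technical.

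**Figure D1:**
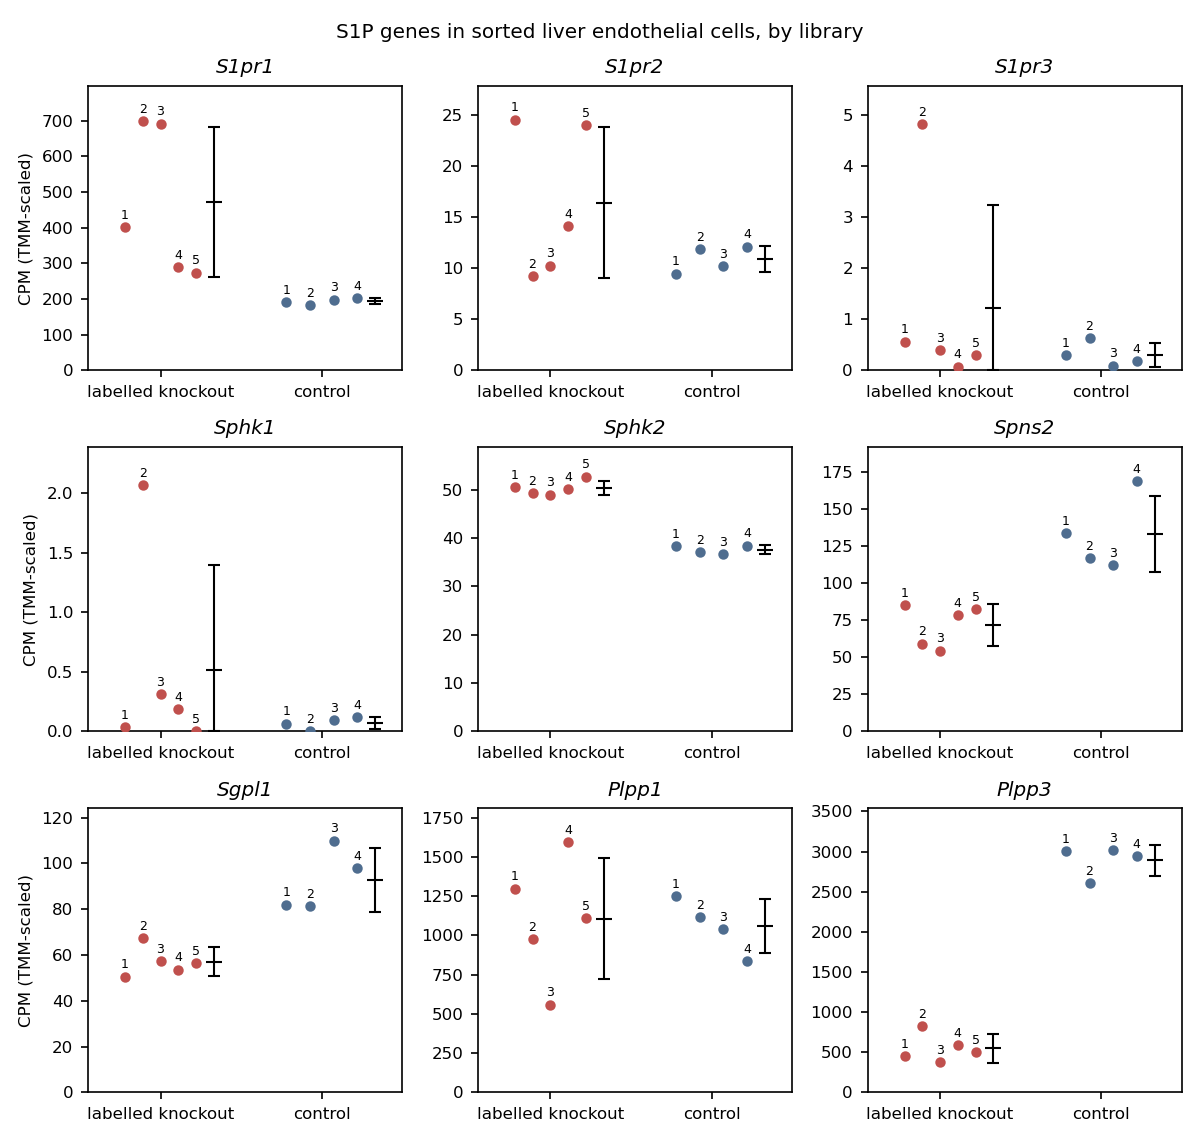
CPM (vertical axes, linear, from 0) of the 9 S1P genes in each library, 5 labelled knockout on the left and 4 controls on the right of each panel. Numbers are replicates, the dash with its bar is the mean with 1 SD (the lower bar is cut at 0). Plpp3, Spns2 and Sgpl1 lie lower and S1pr1 and Sphk2 higher in all 5 libraries labelled knockout than in any control, and S1pr3 and Sphk1 stand out in replicate 2 of the libraries labelled knockout.

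S1pr1 (ENSMUSG00000045092, GRCm38 chromosome 3, 115710433 to 115715072, minus strand), the main S1P receptor gene of endothelium, was the receptor with most counts. It had 401, 698, 691, 290.1 and 274 CPM in replicates 1 to 5 of the libraries labelled knockout, against 191, 183, 198 and 202 CPM in the controls. The controls lay close together, all libraries labelled knockout were above them, and replicates 2 and 3 of those labelled knockout, the libraries with the low endothelial sums, were the highest. The log2 fold change was 1.28 ± 0.30 (SE, edgeR adjusted p = 0.0109). Without replicates 2 and 3 the rise was 1.67-fold and kept its call (edgeR adjusted p = 0.00310).

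S1pr2 (ENSMUSG00000043895, chromosome 9, 20962361 to 20976781, minus strand) was measured at much lower counts. It had 24.5, 9.20, 10.2, 14.1 and 23.9 CPM in the libraries labelled knockout and 9.46, 11.8, 10.2 and 12.1 CPM in the controls. Knockout-labelled replicates 1, 4 and 5 lay above every control, and replicates 2 and 3, where S1pr1 was highest, did not. The log2 fold change of 0.59 ± 0.30 (SE) did not pass the test (edgeR adjusted p = 0.177), but with knockout-labelled replicates 2 and 3 left out it was 0.94, 1.92-fold, and passed (edgeR adjusted p = 0.00674).

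S1pr3 (ENSMUSG00000067586, chromosome 13, 51408639 to 51422797, plus strand) was close to the limit of detection. It had 16, 156, 15, 2 and 9 counts in the libraries labelled knockout and 9, 20, 3 and 6 counts in the controls, so that 1 library, replicate 2 of those labelled knockout, held most of its 236 counts. Its log2 fold change, 2.04 ± 1.11 (SE), did not pass the test (edgeR adjusted p = 0.198). With a term for sex it did (edgeR adjusted p = 0.0424), and without knockout-labelled replicate 1, 2 or 3 it had too few counts to be tested. The other receptor genes were low as well: S1pr4, a receptor gene of blood cells, averaged 4.32 ± 2.31 CPM in the libraries labelled knockout and 8.10 ± 1.78 CPM in controls (log2 -0.91 ± 0.40, SE, edgeR adjusted p = 0.119; called lower by limma-voom and not by DESeq2), with no overlap between the groups, and S1pr5 reached at most 7 counts in any library.

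As shares of the summed RPKM (CPM per kilobase of exon, which allows levels of different genes to be compared) of the 5 S1P receptor genes, S1pr1 made up 95.7%, 98.7%, 99.0%, 95.5% and 94.5% in replicates 1 to 5 of the libraries labelled knockout, against 93.4%, 92.6%, 91.8% and 93.9% in the controls. The S1pr1 shares did not overlap between the groups, and the highest were those of replicates 2 and 3. They come from the same counts as the receptor levels above and are not a separate result. S1pr4 made up 1.51 ± 1.11% in the libraries labelled knockout and 4.956 ± 1.005% in controls. S1pr2 made up 1.64 ± 1.13% in the libraries labelled knockout and 2.002 ± 0.254% in controls.

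Sphingosine kinase transcripts were almost entirely Sphk2. Sphk2 (ENSMUSG00000057342, chromosome 7, 45709467 to 45718002, minus strand) had 50.6, 49.3, 48.9, 50.04 and 52.7 CPM in the libraries labelled knockout, against 38.3, 37.1, 36.6 and 38.4 CPM in the controls. The spread within each group was small and the groups were far apart relative to it, and replicates 2 and 3, the lowest of those labelled knockout, lay close to the rest. It rose by 0.42 ± 0.06 on the log2 scale (SE, edgeR adjusted p = 0.000613), the smallest of the changes called. Of its exon bases 21.9% are shared with Dbp or Rpl18 on the other strand, and strand-specific counting is not stated, so reads of these genes cannot be told apart there. Rpl18, a ribosomal protein gene, had 165 ± 30.6 CPM in the libraries labelled knockout and 129 ± 8.15 CPM in controls (log2 0.35 ± 0.14, SE, edgeR adjusted p = 0.0776), and the part of its reads in the Sphk2 value was not tested. Sphk1 (ENSMUSG00000061878, chromosome 11, 116530925 to 116536674, plus strand), the cytosolic kinase that growth factors activate, had 1, 67, 12, 5 and 0 counts in the libraries labelled knockout and 2, 0, 3 and 4 counts in the controls. As with S1pr3, replicate 2 of the libraries labelled knockout held most of them.

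The members with the largest falls, Plpp3 and Spns2, serve the surface breakdown and the exit of S1P. The 250 bases before their RefSeq start sites (GRCm38.p6) are shown because Erg and Fli1 are ETS factors, whose binding sites share the core letters GGAA. Capitals mark GGAA or its reverse complement TTCC. The Plpp3 window is chr4:105157097-105157346 on the plus strand and the Spns2 window chr11:72475028-72475277 on the minus strand. The Spns2 window lies inside the gene span that GENCODE gives, before a start site downstream of the annotated 5′ end at 72489904.
Plpp3: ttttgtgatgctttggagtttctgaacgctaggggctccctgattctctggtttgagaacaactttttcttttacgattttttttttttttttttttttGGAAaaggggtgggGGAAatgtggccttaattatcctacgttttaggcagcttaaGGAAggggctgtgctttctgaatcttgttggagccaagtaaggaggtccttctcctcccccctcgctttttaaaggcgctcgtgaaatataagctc
Spns2: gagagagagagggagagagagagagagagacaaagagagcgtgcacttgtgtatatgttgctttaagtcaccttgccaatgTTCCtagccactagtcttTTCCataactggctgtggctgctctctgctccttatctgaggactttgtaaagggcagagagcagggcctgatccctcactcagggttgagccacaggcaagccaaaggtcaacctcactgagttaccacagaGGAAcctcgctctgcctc
Each window held 3 matches to GGAA on either strand and 0 to the longer CCGGAA, which contains it and was searched as TTCCGG on the other strand. Over all 32851 RefSeq promoter windows of this length 93.4% held GGAA on either strand, with a median of 3.0 matches, and 12.03% held CCGGAA. The matches are letters only and the data hold no measurement of binding. RefSeq windows were found for 7 of the 9 members, without S1pr1 and Plpp1. Of the other called members, Sgpl1 held 1 match to CCGGAA on either strand, and the Sphk2 windows held 2 and 0. Among members not called or not tested, S1pr2 held 1, S1pr3 held 0 and the Sphk1 windows held 0 or 1. The Sgpl1 window overlaps an annotated exon of Sgpl1 itself, and each Sphk2 window overlaps an exon of Rpl18. Some of the Sphk1 windows overlap Sphk1 exons.

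Spns2 (ENSMUSG00000040447, chromosome 11, 72451638 to 72489904, minus strand), the transporter through which endothelial cells release S1P, had 85.3, 59.3, 54.4, 78.4 and 82.5 CPM in the libraries labelled knockout, against 134, 117, 112 and 169 CPM in the controls. All libraries labelled knockout lay below all controls, and the lowest values were those of replicates 2 and 3, in which S1pr1 was highest. The log2 fold change was -0.88 ± 0.17 (SE, edgeR adjusted p = 0.00375). Spns2 is known from lymphatic endothelium too. Of 6 lymphatic markers 4 were tested, 1 higher (Prox1) and 1 lower (Flt4), and Ccl21a was at 0 in all libraries. Their sum ran between 1478 and 2502 CPM in the libraries labelled knockout and between 4313 and 4668 CPM in controls, mostly from Flt4 and Lyve1, which liver sinusoidal endothelium also expresses, and its part in the Spns2 result was not tested.

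Sgpl1 (ENSMUSG00000020097, chromosome 10, 61098642 to 61147703, minus strand), the lyase that cleaves S1P for good, had 50.6, 67.2, 57.4, 53.5 and 56.4 CPM in the libraries labelled knockout, against 82.0, 81.2, 109.95 and 98.0 CPM in the controls. Here too the groups were apart, and replicates 2 and 3 were the highest of those labelled knockout. On the log2 scale the difference was -0.70 ± 0.11 (SE, edgeR adjusted p = 0.00165).

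**Figure D2:**
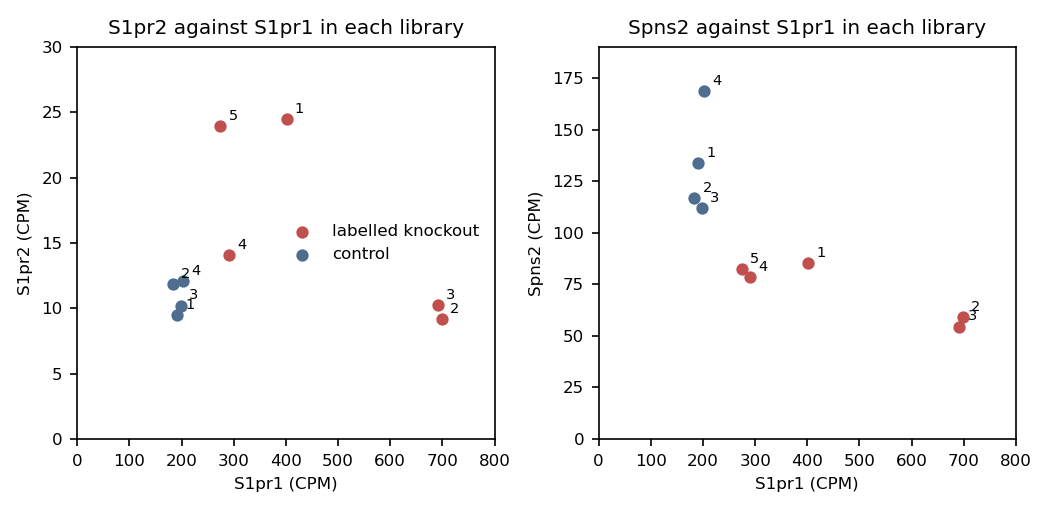
S1pr2 (left) and Spns2 (right) against S1pr1 in each library, all in CPM on linear axes, with replicate numbers beside the points. Knockout-labelled replicates 2 and 3 combine the highest S1pr1, 698 and 691 CPM, with the lowest Spns2, 59.3 and 54.4 CPM, and with S1pr2 within or below the control range.

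The 2 lipid phosphatases parted. Plpp3 (ENSMUSG00000028517, chromosome 4, 105157347 to 105232764, plus strand) had 450.3, 829, 373, 586 and 499.8 CPM in the libraries labelled knockout, against 3002, 2608, 3015 and 2947 CPM in the controls. Even replicate 2, the highest of the libraries labelled knockout, was far below the lowest control. The log2 fold change was -2.40 ± 0.22 (SE, edgeR adjusted p = 7.41e-05), and it lay between -2.60 and -2.29 over the alternatives tried. Plpp1 (ENSMUSG00000021759, chromosome 13, 112800792 to 112867894, plus strand) had 1297, 975, 558, 1594 and 1111 CPM in the libraries labelled knockout and 1248, 1117, 1038 and 835 CPM in the controls. The groups overlapped over most of their range, with the lowest value in replicate 3 and the highest in replicate 4 of the libraries labelled knockout. With a log2 fold change of 0.06 ± 0.26 (SE) it was not called (edgeR adjusted p = 0.879), and the wide error leaves differences of either sign possible. Of the Plpp1 exon bases 25.8% are shared with Mtrex on the other strand, which had 50.7 ± 5.97 CPM in the libraries labelled knockout and 50.4 ± 3.34 CPM in controls.

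Per exon length, Plpp3 was the most abundant of the 9 transcripts in controls, and Plpp1 in the libraries labelled knockout. Plpp3 stood at 173 ± 55.5 RPKM in the libraries labelled knockout and 916 ± 60.9 RPKM in controls, and Plpp1 at 633 ± 220 and 605 ± 98.7 RPKM in the same order. Within each group the ranges of the 2 phosphatases did not overlap: in the libraries labelled knockout Plpp3 ran from 118 to 262 and Plpp1 from 319 to 911 RPKM, and in controls Plpp3 ran from 825 to 955 and Plpp1 from 477 to 713 RPKM. Their sum was 806 ± 238 RPKM in the libraries labelled knockout, from 437 to 1097, and 1521 ± 110 RPKM in controls, from 1410 to 1663. S1pr1 came next, at 155 ± 69.0 RPKM in the libraries labelled knockout, where its range overlapped that of Plpp3, and 63.6 ± 2.77 RPKM in controls, where it did not.

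Spns2 came below it in both groups, at 17.6 ± 3.46 RPKM in the libraries labelled knockout and 32.5 ± 6.27 RPKM in controls. Sphk2 and Sgpl1 exchanged places: Sphk2 stood at 12.1 ± 0.35 RPKM in the libraries labelled knockout and 9.04 ± 0.22 RPKM in controls, and Sgpl1 at 9.29 ± 1.02 and 15.1 ± 2.25 RPKM in the same order. By the exon union their ranges did not overlap within either group, but by the longest transcript they overlapped in the libraries labelled knockout. S1pr2 followed at 2.06 ± 0.93 RPKM in the libraries labelled knockout and 1.37 ± 0.16 RPKM in controls, and S1pr3 and Sphk1 came last with overlapping ranges in each group.

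**Figure D3:**
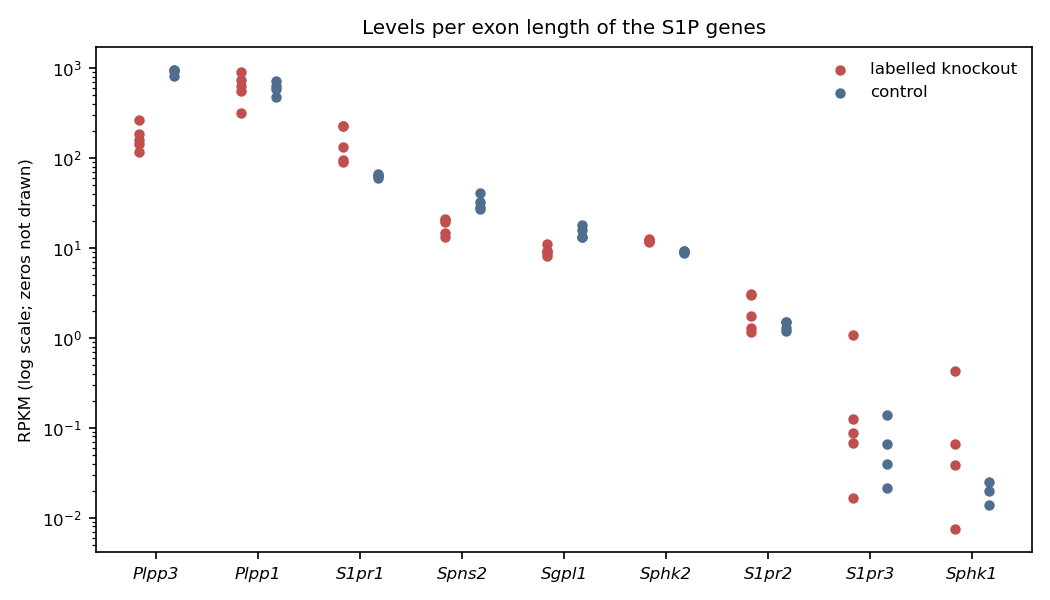
RPKM (log axis) of the 9 S1P genes in each library, the 5 labelled knockout left of the 4 controls for each gene, with genes ordered by their control mean. Plpp3 leads in controls, between 825 and 955 RPKM, and lies under Plpp1 in the libraries labelled knockout, between 118 and 262 RPKM.

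**Figure D4:**
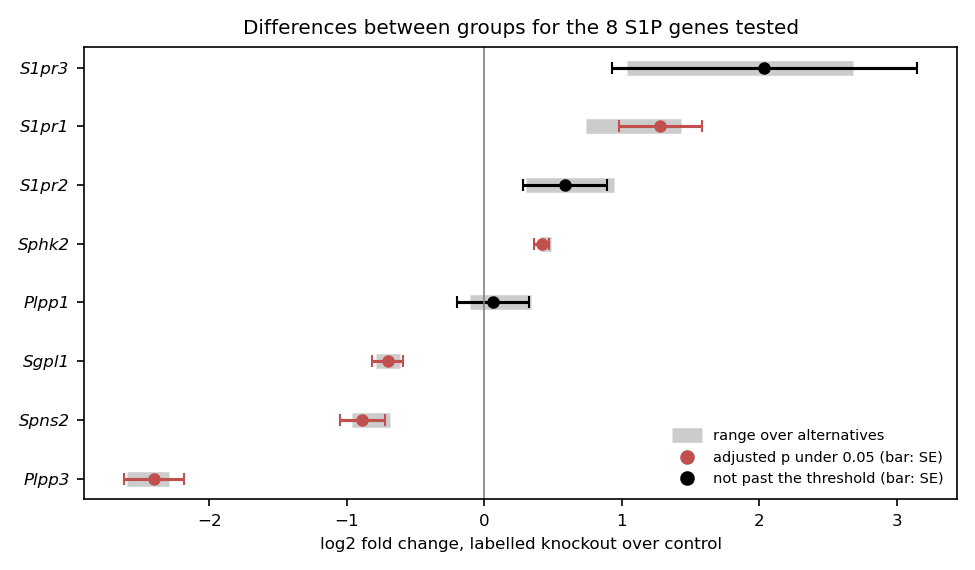
Log2 fold change with its SE for the 8 S1P genes tested, over the range of values from the alternatives tried (grey). Plpp3, Spns2 and Sgpl1 lie below 0 and S1pr1 and Sphk2 above 0 in every alternative, and Plpp1 lies on both sides.

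The genes whose profile over the 9 libraries was most like that of S1pr1 were Fam107b, Spats2, Litaf, Wbp1l and Mxi1, measured as the root mean square difference between log2 CPM profiles centred on their mean, which lay between 0.09 for Fam107b and 0.15 for Mxi1. Litaf encodes a protein of the endosome and lysosome membrane, and Mxi1 a partner of MAX that opposes MYC. Most like Plpp3 were Sh2d3c, the Notch ligand gene Dll1, Susd1, Gipc3 and Kank3, with differences between 0.18 for Sh2d3c and 0.23 for Kank3. Kank3, for example, had 95.2 ± 31.9 CPM in the libraries labelled knockout and 431 ± 48.3 CPM in controls.

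Other genes of sphingolipid metabolism and S1P signalling were described by lists. Of 85 genes in 8 lists, 73 were tested, and 11 were higher, 13 lower and 49 not past the threshold, against the 29.3% called among all genes. The median log2 fold change of all genes tested was 0.01.

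Beside the members themselves, S1P export and breakdown include the ATP-binding cassette transporters tied to S1P release in other cells, the intracellular phosphatases Sgpp1 and Sgpp2, the erythrocyte exporter Mfsd2b and the plasma carrier Apom. Of 7 tested 2 were higher and 0 lower by edgeR (median log2 -0.31), while 2 were lower at an unadjusted p under 0.05, 1 was lower by DESeq2 and 0 by limma-voom. With knockout-labelled replicates 2 and 3 left out edgeR called 1 higher and 4 lower. Abcg2 rose 3.50-fold, to 221 ± 38.1 CPM in the libraries labelled knockout, against 63.2 ± 12.1 CPM in controls (edgeR adjusted p = 7.34e-05). Abca1, which also carries cholesterol, had 268 ± 116 CPM in the libraries labelled knockout and 126 ± 36.01 CPM in controls (log2 1.09 ± 0.34, SE), a call (edgeR adjusted p = 0.0386) that 10 of 19 alternatives ended, with adjusted p up to 0.144. Sgpp1 had 358 ± 41.1 CPM in the libraries labelled knockout and 440 ± 55.7 CPM in controls and did not pass (edgeR adjusted p = 0.0805).

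Ceramide, the precursor of sphingosine, is made in the endoplasmic reticulum from serine and a fatty acid. Of 11 tested supply genes 1 was higher and 2 lower (median log2 0.11). Sptlc1, a subunit of the first enzyme, fell to 50.6 ± 5.91 CPM in the libraries labelled knockout, against 71.1 ± 5.45 CPM in controls, and the ceramide synthase gene Cers4 to 90.1 ± 18.6 CPM, against 138 ± 11.4 CPM. Ormdl3, which restrains that first enzyme, rose 1.30-fold. Ceramidases release sphingosine from ceramide, and of 4 tested 1 was higher and 1 lower (median log2 -0.19): Acer2, the Golgi enzyme, rose to 1315 ± 185 CPM in the libraries labelled knockout, against 846 ± 118 CPM in controls (edgeR adjusted p = 0.00829), and Acer3 fell 1.94-fold (edgeR adjusted p = 0.00558). Of 10 tested genes that move ceramide into or out of sphingomyelin and glycosphingolipids, 2 were higher and 1 lower (median log2 0.04). Cerk, which phosphorylates ceramide, rose 2.34-fold, to 385 ± 58.8 CPM in the libraries labelled knockout, against 165 ± 11.8 CPM in controls (edgeR adjusted p = 0.000126). Ugcg, which makes glucosylceramide, rose 2.09-fold, and the sphingomyelinase gene Smpd4 fell 1.19-fold, a call that ended with knockout-labelled replicates 2 and 3 left out (edgeR adjusted p = 0.0613), without a count filter and with a replicate block.

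Downstream of the receptors, 21 genes of G proteins and their effectors were tested, of which 2 were higher and 5 lower (median log2 -0.10), or 2 and 3 with knockout-labelled replicates 2 and 3 left out. The inhibitory G protein subunit gene Gnai2 fell 1.33-fold and Gnai3 rose 1.29-fold, Rock2, a kinase that acts on the cytoskeleton, rose 1.42-fold, and the nitric oxide synthase gene Nos3 fell 2.37-fold, to 201 ± 99.98 CPM in the libraries labelled knockout, against 477 ± 73.8 CPM in controls. The Gnai2 call ended without control replicate 1, 2 or 3, the Rock2 call without control replicate 1 or 2, and both with a replicate block (edgeR adjusted p up to 0.121 and 0.0599). Rac1, a small GTPase through which S1P receptors act on the cytoskeleton, had a log2 fold change of 0.00 ± 0.11 (SE) and did not pass. The other genes of this list called lower were Tiam1, Plcb1 and Gnaq, with log2 fold changes of -1.08, -0.92 and -0.39. Their edgeR adjusted p was 0.0240, 0.0234 and 0.0322, and these calls were not followed gene by gene over the alternatives.

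A list of genes that desensitise the receptors or control their presence at the surface, to which Klf2 and the oxysterol receptor gene Gpr183 were also assigned, had 1 higher and 3 lower of 13 tested (median log2 -0.22), or 2 and 5 by DESeq2. Arrb1, a beta-arrestin gene, fell 2.37-fold, to 303 ± 38.2 CPM in the libraries labelled knockout, against 716 ± 35.8 CPM in controls (edgeR adjusted p = 5.70e-05). Grk5, a receptor kinase gene, rose 1.70-fold to 25.2 ± 2.53 CPM, against 14.8 ± 3.75 CPM in controls, and Rgs3, which shuts off G protein signals, fell 1.37-fold. The Rgs3 call ended without control replicate 4, and with knockout-labelled replicates 2 and 3 left out (edgeR adjusted p = 0.0546). Arrb2 fell 1.47-fold at edgeR adjusted p = 0.0477, a call that 14 of 19 alternatives ended. Klf2, a flow-responsive factor gene known as an activator of S1pr1 in T cells, had 549 ± 244 CPM in the libraries labelled knockout and 770 ± 279 CPM in controls and did not pass (edgeR adjusted p = 0.359).

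**Figure D5:**
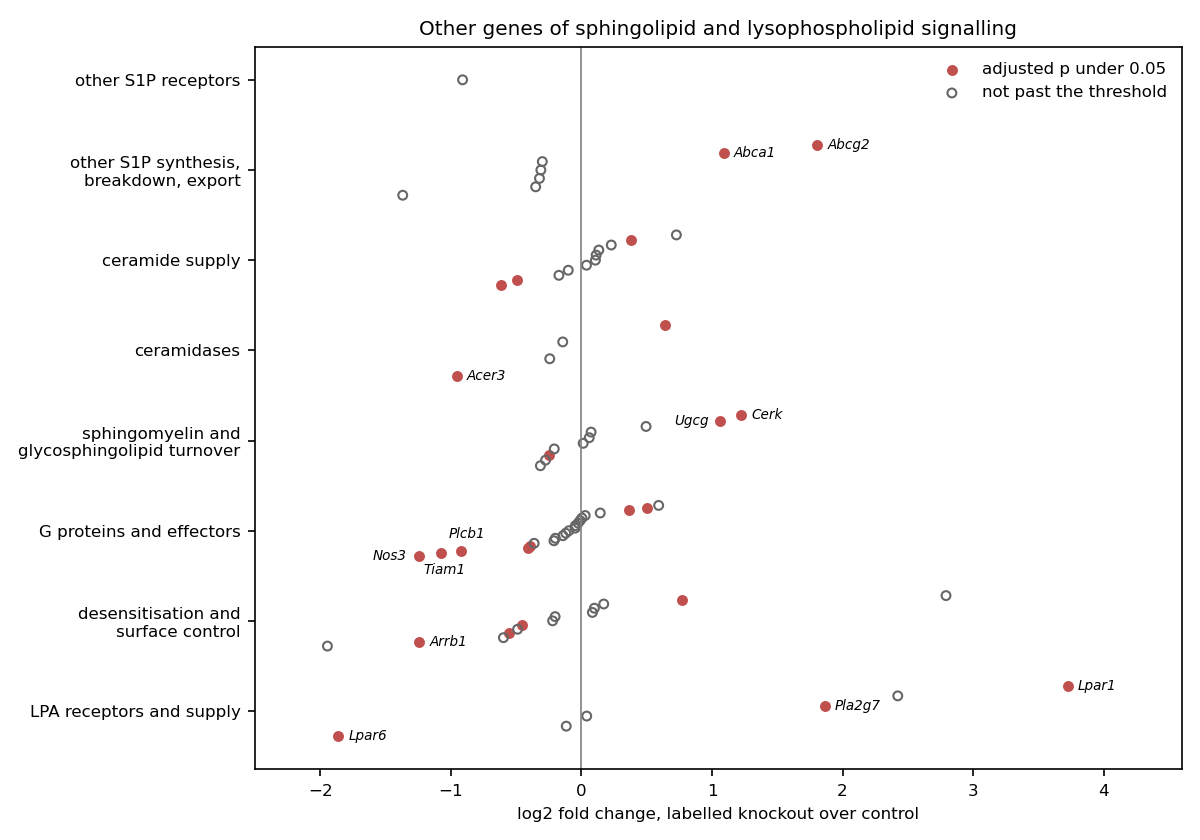
Log2 fold changes of the tested genes in 8 lists of sphingolipid and lysophospholipid genes, filled where the edgeR adjusted p was under 0.05, with the called genes of largest change named. Called genes lie on both sides of 0 in 6 of the 8 lists, and Lpar1, a receptor gene for LPA, has the largest rise at 3.72.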

How the data were processed

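Per the labels' protocols, polyadenylated RNA of sorted liver endothelial cells was made into libraries with either an unstranded or a stranded kit, and which library used which is not stated. The authors deposited raw counts per Ensembl gene, 1 column per sample. The submitters' processing notes name FastQC 0.11.5, STAR 2.7.6a and GRCm38, and no source used here names the counting program, annotation release or strand setting. Columns were matched to samples by their descriptions, groups and replicate numbers were taken from titles, and 0 columns were unused.

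Symbols, positions and exon lengths came from GENCODE M21 (GRCm38), promoter windows from RefSeq (GRCm38.p6). The depth of each library makes 1 count worth between 0.0260 and 0.0368 CPM. Genes passed filterByExpr (minimum count 10, minimum total 15), TMM scaled the counts, and libraries labelled knockout were set over controls by glmQLFit and glmQLFTest of edgeR 4.0.16 (robust, no covariate; R 4.3.3), adjusted over all genes at a threshold of 0.05. The SE of a log2 fold change is its absolute value divided by the root of its F statistic. RPKM used the union of exons. The fit was tested on simulated data. Library pairs within a group had 20.3 to 182 chi-square per degree of freedom, so none was a copy. Alternatives were DESeq2 1.42.0, limma-voom (limma 3.58.1), other scalings and filters, a replicate block, a sex term (from Xist and Ddx3y) and libraries left out. By Xist and Ddx3y, 3 controls were male and 1 female, and 2 libraries labelled knockout were male and 3 female. Sex was thus not balanced between the groups.

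The members and lists were chosen with earlier results of these data known, as were the alternatives. Genes named were the 9 members, the targeted and sorted genes, up to 4 called genes of each list with the smallest p, and the 5 nearest profiles of S1pr1 and of Plpp3, the member with the largest fall. Sgpp1, Rac1, Tiam1, Plcb1, Gnaq, Klf2, S1pr4, S1pr5, Gpr183, Enpp2, Lpar2, Lpar4, marker genes and overlapping genes were added after their values were seen. Profiles used log2 of CPM with a pseudocount of 0.5, for genes averaging at least 10 CPM.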

Additional observations from a re-analysis of the deposited data

Results flagged for a closer look

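In replicate 2 of the libraries labelled knockout, S1pr3 stood at 4.81 CPM, far above the next library of its group at 0.565 CPM. The same library held 2.07 CPM of Sphk1, against 0.312 CPM in the next. It also held 73.4 CPM of Pla2g7, a phospholipase gene that acts on oxidised lipids, against 23.6 CPM in the next. That library had the highest sums of macrophage, mesenchymal, erythroid, cholangiocyte and lymphocyte markers too. The part of such cells in these values was not tested. Control replicate 2 had 2608 CPM of Plpp3, below the other controls, the nearest of which had 2947 CPM. The range of a group was set mainly by 1 library in these 4 of 64 gene-and-group sets looked at, 3 of them among the 18 of the members. The critical values are those that chance passes in about 1 in 20 sets of normally distributed values. Their rate in these data, where S1pr3 and Sphk1 had few counts, was not measured.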

How the results depend on the processing

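In each alternative 3 members were called lower and 2 or 3 higher: S1pr1, Sphk2, Spns2, Sgpl1 and Plpp3 kept direction and call in all 19, S1pr2 was added with knockout-labelled replicates 2 and 3 left out, and S1pr3 with a sex term. S1pr3 could be tested in 13 of 19. Plpp1, not called in any, changed sign with a replicate block (log2 -0.024), and leaving out 1 library gave between -0.10 and 0.24. With the block, which left out the unpaired replicate 5, 1288 genes were higher and 1370 lower, against 2110 and 2161, and the Fli1 log2 fold change of 0.51 lost its call (edgeR adjusted p = 0.0636); no member's call changed. In the titles, same-numbered libraries of the 2 groups share a number. The correlations of their deviations from the group means lay between -0.35 and 0.32, and of the 4 numbers 1 matched its own best. So few values can neither show nor exclude a pairing. Leaving out 1 library gave between 8 and 13 list genes lower, against 13, with 8 without control replicate 1. With the longest transcript in place of the exon union, the share of S1pr2 among receptors in controls was 2.48%, against 2.002%. Sphk2 and Sgpl1 then stood at 14.2 and 13.1 RPKM in the libraries labelled knockout, with overlapping ranges. Low counts limit S1pr3, Sphk1 and S1pr5, and intervals cover the spread between libraries only.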

Other observations

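LPA is a second lysophospholipid signal, which the surface phosphatases also end. Of 6 tested genes of LPA receptors and supply, 2 were higher and 1 lower (median log2 0.95). The sum of the 8 genes of this list, mostly from Lpar6, ran from 123 to 165 CPM in the libraries labelled knockout. In controls it ran from 306 to 366 CPM. Lpar1, a widely expressed LPA receptor gene, rose 13.2-fold, to 11.7 ± 1.69 CPM in the libraries labelled knockout (SD, n = 5), against 0.884 ± 0.10 CPM in controls (SD, n = 4; edgeR adjusted p = 3.21e-06). Lpar6 fell 3.63-fold, to 90.4 ± 14.2 CPM in the libraries labelled knockout, against 328 ± 24.4 CPM in controls (edgeR adjusted p = 1.86e-05). In both genes the groups did not overlap, which held for 27% of all genes tested.

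Lpar2 and Lpar4 did not pass, with log2 fold changes of 0.04 ± 0.36 and -0.12 ± 0.14 (SE). Pla2g7 had 26.1 ± 26.97 CPM in the libraries labelled knockout and 7.19 ± 1.58 CPM in controls, a call (edgeR adjusted p = 0.0469) that 8 of 19 alternatives ended. The autotaxin gene Enpp2, whose enzyme makes LPA, had 1.74 ± 2.57 CPM in the libraries labelled knockout and 0.324 ± 0.340 CPM in controls and did not pass (edgeR adjusted p = 0.169).

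S1pr4, like S1pr2, was lowest in replicates 2 and 3 of the libraries labelled knockout, where S1pr1 was highest: those had 1.94 and 1.77 CPM, and replicates 1, 4 and 5 had 6.35, 6.41 and 5.14 CPM, against 7.56, 7.56, 10.7 and 6.59 CPM in the controls.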
